A study of Mus musculus with 10 samples.

Results

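The serum response factor gene Srf, the 3 genes of its myocardin-related cofactors (Mrtfa, Mrtfb and Myocd) and the 3 genes of the ternary complex factors (Elk1, Elk3 and Elk4) were followed in luminal and basal cells of the mouse mammary gland. These 7 genes were chosen by name from the 24594 genes of the count table, as the regulators of the SRF pathway and not its targets. Polyadenylated RNA of cells sorted from wild-type, virgin C57BL/6J mice was sequenced, with 5 libraries of luminal cells (the inner, milk-forming layer of the ducts) and 5 of basal cells (the outer, contractile layer). Both populations went through the same dissociation with collagenase and hyaluronidase, trypsin and dispase, were separated on the surface proteins EpCAM and CD49f, and carried no transgene or treatment. The labels give no age. Replicates of the same number in both cell types were read as the same animal.

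SRF is a DNA-binding protein that recognises the CArG box, a short A/T-rich element in the promoters of cytoskeletal and immediate-early genes. It acts through partners that compete for the same surface of the protein. The cofactors MRTF-A and MRTF-B are held in the cytoplasm by monomeric actin and enter the nucleus when actin is built into filaments, whereas the ternary complex factors ELK1, ELK3 and ELK4 bind an ETS motif beside the CArG box and are phosphorylated by ERK. In the mammary gland the basal cells are myoepithelial and use many smooth-muscle genes that SRF is known to control.

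The levels of the 10 lineage marker genes of luminal cells and of the 8 of basal cells all followed the cell type label. Titles and labels disagree on the cell type of each of the 10 libraries, and the labels were followed. Library totals ran from 13203146 to 17565471 counts in luminal and from 13676558 to 17998165 counts in basal libraries. The summed level of 8 basal markers was 28.9 to 80.9 CPM (counts relative to the TMM-scaled library total) in luminal libraries and 11021 to 15770 CPM in basal libraries. Summed endothelial markers were low, at 2.69 to 7.10 CPM in luminal and 7.56 to 15.2 CPM in basal libraries. Among perivascular markers Rgs5 was at 0.159 CPM in luminal and 21.7 CPM in basal libraries, Pdgfrb at 0.676 and 9.84 CPM and Cspg4 at 0.0123 and 2.61 CPM. Notch3, of the same list, went the other way with 165 CPM in luminal and 4.58 CPM in basal libraries, and the whole list of 6 genes summed to 94.9 to 269 CPM and 35.4 to 48.8 CPM. The 5 immune markers summed to 4.13 to 11.3 CPM in luminal and 12.2 to 34.4 CPM in basal libraries, with Cd3e at 0 in all. Of the 3 immune markers tested, Cd52 (4.65 against 1.13 CPM) and Lyz2 (1.31 against 0.395 CPM) were higher in luminal cells and Cd74 (2.62 against 20.7 CPM) in basal cells. The 5 fibroblast markers summed to 22.1 to 113 CPM and 24.8 to 41.5 CPM, with Dcn higher in luminal (38.3 against 12.0 CPM) and Pdgfra higher in basal cells (5.82 against 12.4 CPM). The 3 adipocyte markers summed to 0.611 to 1.59 CPM and 3.95 to 8.88 CPM, with Adipoq at 0 in all and Fabp4 at 1.01 and 5.42 CPM. The sort described in the study also stained for TER-119, CD31 and CD45, the lineage markers of red blood cells, endothelial cells and leukocytes. The part of such cells in the differences below was not tested, and in bulk RNA fewer cells of a type and less RNA per cell cannot be told apart.

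Of the 7 genes, 6 had enough counts to be tested (edgeR's quasi-likelihood test, adjusted by Benjamini-Hochberg over all 14609 genes tested). An adjusted p under 0.05 was reached by 5 of these 6, against 64.8% of all genes tested, so that the share of called genes by itself says little in this comparison. Srf, Mrtfa, Elk1 and Elk4 were higher in basal cells, a direction called for 31.2% of all genes tested, and Mrtfb was higher in luminal cells, a direction called for 33.6%. Elk3 was not called, and Myocd was too low to test. The calls of Mrtfa, Mrtfb and Elk4 held in every alternative fit, and those of Srf and Elk1 did not. The values of Srf, Mrtfa and Elk4 did not overlap between the cell types, as was the case for 50.1% of all genes tested.

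**Figure D1:**
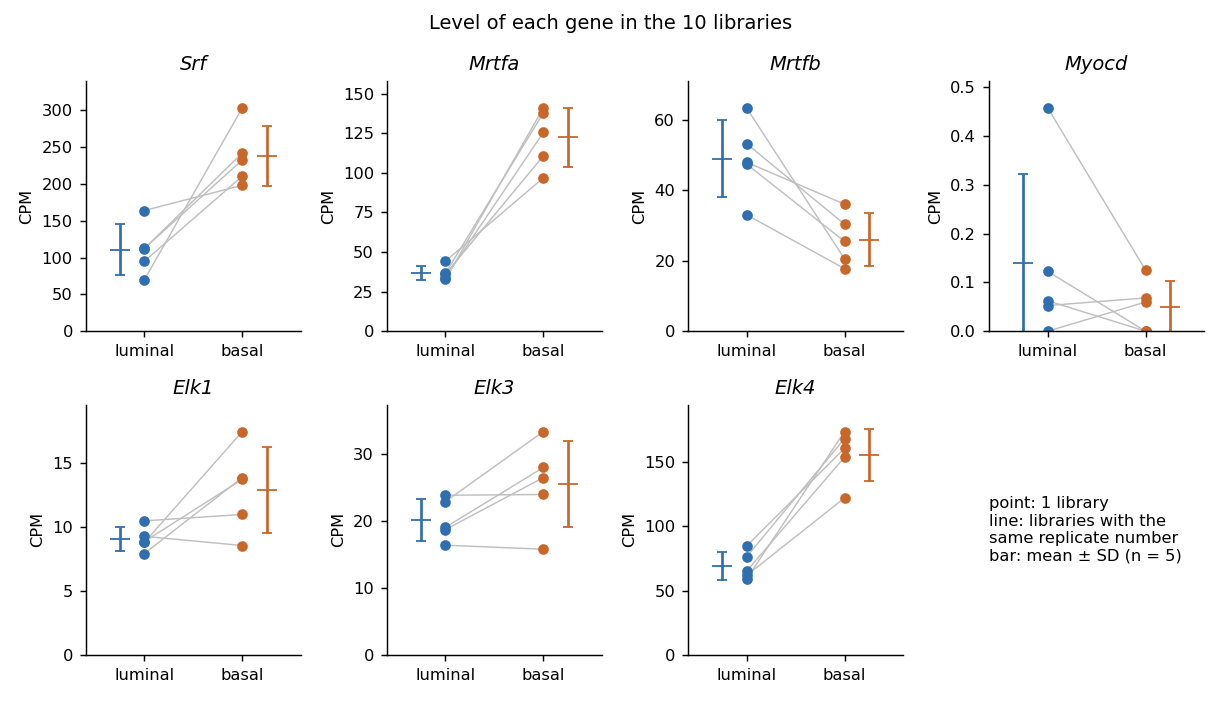
Level of each of the 7 genes in CPM (linear axes from 0) in luminal and basal libraries. Points are libraries, lines join libraries of the same replicate number, and bars are the mean ± SD (n = 5). Srf, Mrtfa and Elk4 lie higher in all 5 basal libraries, Mrtfb lies higher in luminal cells in all 5 pairs, and Myocd stays below 0.5 CPM.

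Srf (Entrez 20807, chr17:46546838-46558267 of GRCm38, minus strand) encodes the factor on which the pathway converges. Its promoter window holds matches to the CArG box that its own product recognises, which is why its sequence is shown first. The window lies within the extent just given, so the transcription start used is downstream of the 5′ end of that extent. The 250 bases before the transcription start that the RefSeq promoter table gives for Srf (GRCm38.p6, chr17:46556163-46556412, minus strand, written 5′ to 3′ along the gene) hold 2 CArG boxes and 1 ETS motif CCGGAA, which are in capitals.
Srf promoter: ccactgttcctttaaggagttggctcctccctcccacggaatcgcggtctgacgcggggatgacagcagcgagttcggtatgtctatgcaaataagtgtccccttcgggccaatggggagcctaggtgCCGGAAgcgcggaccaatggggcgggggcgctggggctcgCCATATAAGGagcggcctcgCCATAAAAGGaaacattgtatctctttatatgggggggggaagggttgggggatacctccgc
The CArG boxes lie 82 to 73 and 62 to 53 bases before the start and read CCATATAAGG and CCATAAAAGG. The ETS motif CCGGAA lies 122 to 117 bases before it and overlaps neither. Both motifs were searched on both strands. A CArG box was found in the windows of 1.62% of 27025 genes, and 2 or more in a single window in 5 genes, of which Srf is 1. The motif CCGGAA or its complement TTCCGG was found for 13.6% of genes. These are matches of letters and not measured binding sites.

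In luminal replicates 1 to 5 Srf was at 69.7, 112, 94.9, 164 and 112 CPM. In basal replicates 1 to 5 it was at 303, 242, 211, 198 and 233 CPM. Every basal library was above every luminal library, and the gap was narrowest in replicate 4, where the luminal level was the highest and the basal level the lowest of their groups. The means were 111 ± 34.5 CPM in luminal and 237 ± 40.8 CPM in basal cells (SD, n = 5), and the fitted log2 fold change of luminal over basal was -1.10 (SE 0.20, adjusted p = 0.000272). The difference depended on correction for GC content and length. With offsets for GC content and transcript length in the fit it shrank to -0.38 (SE 0.22, adjusted p = 0.14), and with the replicate number as a block as well it was -0.44 (adjusted p = 0.135). The transcript of Srf is 64.4% GC, higher than 99.5% of the tested genes of known composition. The 170 genes within 2 percentage points of that GC content had a median log2 fold change of -0.16, against 0.05 for all genes with a value. The direction of Srf, higher in basal cells, was the same in all 5 pairs, while its size is uncertain by the difference between both fits.

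Mrtfa (Entrez 223701, chr15:81012281-81190736, minus strand) encodes MRTF-A, a cofactor that senses monomeric actin through its RPEL repeats. It showed the largest difference among the 6 tested genes. Luminal replicates 1 to 5 had 36.6, 33.9, 36.0, 44.2 and 32.7 CPM. Basal replicates 1 to 5 had 138, 126, 111, 96.9 and 141 CPM. The luminal libraries lay close together, and the lowest basal library was more than 50 CPM above the highest of them. The means of 36.7 ± 4.50 and 122 ± 18.6 CPM (SD, n = 5) corresponded to a log2 fold change of -1.74 (SE 0.14, adjusted p = 1.16e-07), a 3.34-fold higher level in basal cells. With GC and length offsets the value was -1.52, and over all 21 alternative fits and left-out libraries it stayed between -1.82 and -1.52. Mrtfa shares 10 bases of exon with Sgsm3 on the opposite strand. Sgsm3 was at 61.7 CPM in luminal and 3.42 CPM in basal cells, and the share of reads counted for both genes was not tested.

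Mrtfb (Entrez 239719, chr16:13256056-13417529, plus strand) encodes MRTF-B, the closest relative of MRTF-A, and it went the other way. Its luminal replicates 1 to 5 were at 63.4, 53.3, 48.0, 33.1 and 47.5 CPM. Its basal replicates 1 to 5 were at 20.5, 30.4, 36.1, 17.8 and 25.5 CPM. The groups overlapped, because luminal replicate 4 lay below basal replicate 3, but the luminal library was the higher in all 5 pairs. Means were 49.0 ± 10.99 and 26.0 ± 7.39 CPM (SD, n = 5), with a log2 fold change of 0.92 (SE 0.21, adjusted p = 0.0017), and thus a 1.89-fold higher level in luminal cells. GC and length offsets raised this to 1.42 (adjusted p = 1.54e-05), and no alternative took the call away. A non-coding gene on the opposite strand, Gm15738, overlaps 162 bases of its exons, and whether the counting used strand is not given in the sources used here.

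The promoters of both MRTF genes are given because the genes moved in opposite directions. The first RefSeq window of each (GRCm38.p6, 250 bases before the start, 5′ to 3′ along the gene) is chr15:81190737-81190986 on the minus strand for Mrtfa and chr16:13256231-13256480 on the plus strand for Mrtfb. Capitals mark the ETS motif.
Mrtfa promoter: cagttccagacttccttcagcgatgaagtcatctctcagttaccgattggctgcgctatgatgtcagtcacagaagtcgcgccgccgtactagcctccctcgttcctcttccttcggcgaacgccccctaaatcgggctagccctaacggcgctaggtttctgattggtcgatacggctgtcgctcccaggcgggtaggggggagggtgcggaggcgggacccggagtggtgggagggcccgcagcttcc
Mrtfb promoter: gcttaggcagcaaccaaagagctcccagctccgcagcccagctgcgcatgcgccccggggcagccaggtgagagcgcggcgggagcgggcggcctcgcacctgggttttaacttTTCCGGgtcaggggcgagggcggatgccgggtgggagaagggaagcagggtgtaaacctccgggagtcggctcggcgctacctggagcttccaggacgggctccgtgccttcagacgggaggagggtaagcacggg
Neither window holds a CArG box, in contrast to Srf. The Mrtfb window holds 1 ETS motif, written TTCCGG on this strand, 136 to 131 bases before the start, and the Mrtfa window holds none. The first window of Elk4 also holds 1 motif CCGGAA, 68 to 63 bases before the start, and the windows of Elk1 and Elk3 hold neither motif. Myocd has no entry in the promoter table.

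Myocd (Entrez 214384, chr11:65173608-65269989, minus strand) encodes myocardin, the cofactor known from heart and smooth muscle. Luminal replicates 1 to 5 had 1, 1, 2, 6 and 0 counts. Basal replicates 1 to 5 had 0, 1, 0, 2 and 1 counts. A count of 0 allows up to 3 counts, equal to 0.19 CPM in luminal replicate 5, 0.187 CPM in basal replicate 1 and 0.232 CPM in basal replicate 3. Only luminal replicate 4, at 0.458 CPM, was above 3 counts. No difference between the cell types was detectable at this depth. The basal cells had high levels of smooth-muscle genes (described further on) at a Myocd level of at most 2 counts a library.

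Per kb of exon, merged over all transcripts of a gene, the myocardin family was made up differently in the cell types. The merged exons are longer than the longest transcript (6114 against 4392 bases for Mrtfa, 8990 against 8295 for Mrtfb). Shares within a cell type depend on this choice of length. Expressed as CPM per kb of exon, Mrtfa and Mrtfb were at 6.00 ± 0.74 and 5.45 ± 1.22 in luminal cells (SD, n = 5). In basal cells they were at 20.03 ± 3.05 and 2.90 ± 0.82. Mrtfa made up 52.5% ± 7.83 of the summed family in luminal and 87.3% ± 3.51 in basal libraries (SD, n = 5). Mrtfb made up 47.3% ± 8.08 and 12.7% ± 3.52. The sum of the family was 11.5 ± 0.93 CPM per kb in luminal and 22.9 ± 3.17 CPM per kb in basal cells. In CPM per kb the family sum was thus higher in basal libraries, and the shares of the 2 MRTF genes differed between the cell types. The sum was not tested, and CPM is relative to the library total and not an amount per cell.

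**Figure D2:**
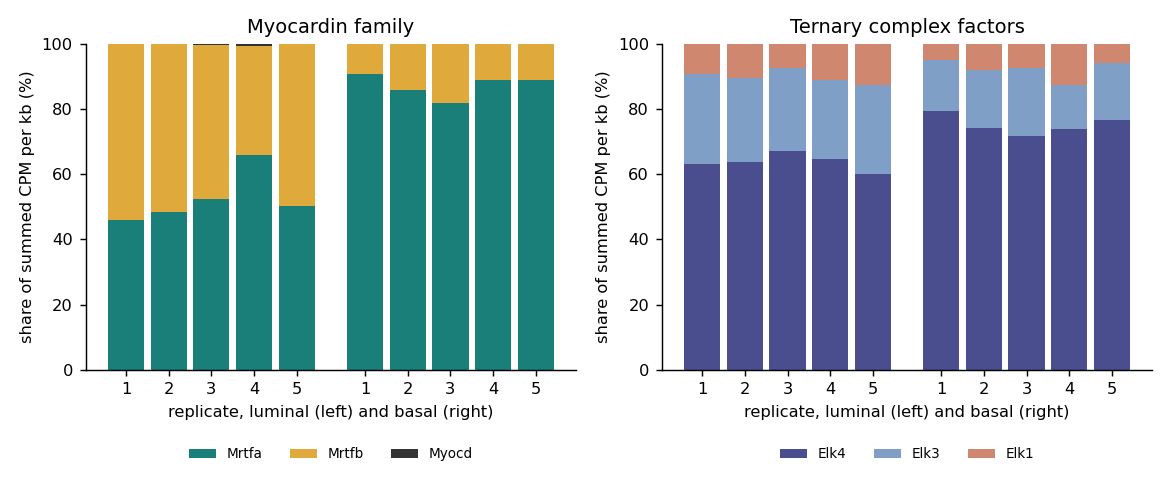
Share of each gene in the summed level of its family (percent of CPM per kb of exon) in every library, for the myocardin family (left panel) and the ternary complex factors (right panel). Mrtfa takes 45.9% to 65.9% of its family in luminal libraries and 81.9% to 90.8% in basal libraries.

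The ratio of 2 genes within a library does not depend on the scaling of that library, so 6 such ratios were compared (exact two-sided permutation test over libraries, adjusted over the 6). The log2 ratio of Mrtfa to Mrtfb counts was -0.79, -0.65, -0.41, 0.42 and -0.54 in luminal replicates 1 to 5. In basal replicates 1 to 5 it was 2.75, 2.05, 1.62, 2.45 and 2.47. No basal library came near a luminal one, and luminal replicate 4 stood nearest to them. The ratio was 6.33-fold higher in basal cells (difference of luminal minus basal -2.66 on the log2 scale, exact p = 0.00794, the smallest that 5 against 5 libraries allow, adjusted p = 0.0159). Mrtfb relative to Srf was 4.2-fold higher in luminal cells (2.07 on the log2 scale, exact permutation p = 0.00794, adjusted p = 0.0159), and its values did not overlap. Mrtfa relative to Srf was lower in luminal cells by a smaller amount (-0.59, exact permutation p = 0.0317, adjusted p = 0.0476), in 4 of 5 pairs. This last call was lost on leaving out any library except luminal replicate 1, and the difference became -1.14, with no test, when both genes were corrected for GC content and length. These permutations do not use the pairing by animal. Sign flips over the 5 pairs, which cannot go below an exact p of 0.0625, gave an adjusted p of 0.125 for Mrtfa to Mrtfb and for Mrtfb to Srf, and of 0.15 for Mrtfa to Srf. With a difference of medians in the permutation test the first 2 had an adjusted p of 0.0952 and the third of 0.179. None of these is past the threshold.

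**Figure D3:**
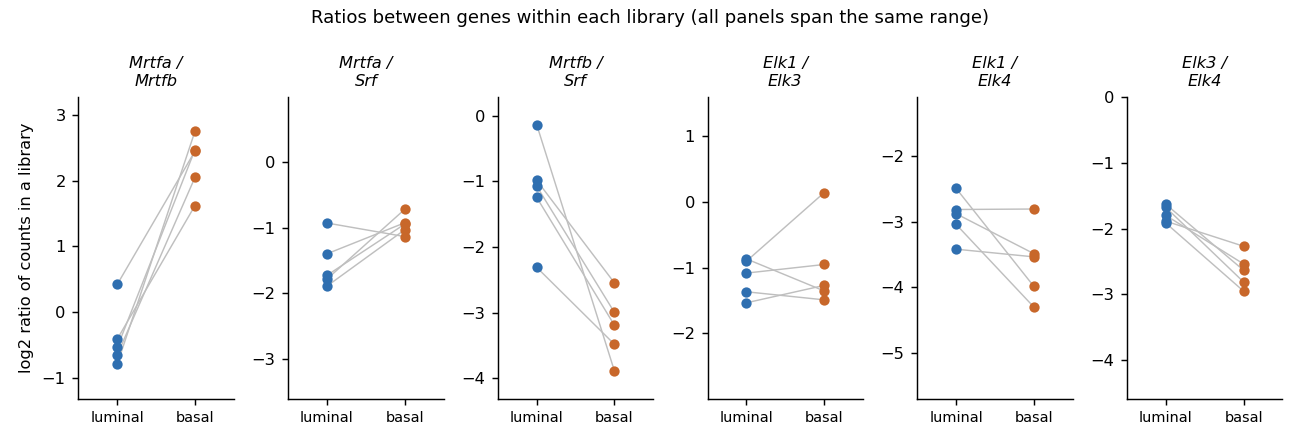
Log2 ratio of counts between pairs of genes within each library, in luminal and basal cells, with lines joining the same replicate number. All panels span the same number of log2 units. The ratios Mrtfa to Mrtfb, Mrtfb to Srf and Elk3 to Elk4 do not overlap between the cell types.

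Elk4 (Entrez 13714, chr1:132007577-132026448, plus strand) encodes the ternary complex factor also called SAP-1. Luminal replicates 1 to 5 were at 76.3, 65.2, 84.7, 61.8 and 59.0 CPM. Basal replicates 1 to 5 were at 168, 154, 161, 122 and 174 CPM. All basal libraries were above all luminal libraries. The means were 69.4 ± 10.8 and 156 ± 20.3 CPM (SD, n = 5), giving a log2 fold change of -1.17 (SE 0.14, adjusted p = 6.98e-06), with a range of -1.27 to -0.97 over the alternatives. The counts of Elk4 cannot be told apart with certainty from those of its neighbour Mfsd4a, a gene of the opposite strand. The extents of both genes overlap by 3643 bases in the RefSeq table, at the 3′ end of Elk4, while the exons overlap by 84 bases in GENCODE M21. Elk4 also shares 104 bases of exon with Gm29103 on its own strand. The ratio of Elk4 to Mfsd4a counts was between 1.01 and 1.13 in luminal and between 1.09 and 1.15 in basal libraries, near 1 in all 10. Mfsd4a had a log2 fold change of -1.08 (SE 0.14, adjusted p = 1.09e-05). How many reads were counted for both genes was not tested.

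Elk3 (Entrez 13713, chr10:93247415-93311159, minus strand) encodes a factor also called NET, which represses until it is phosphorylated. Luminal replicates 1 to 5 were at 23.9, 18.8, 22.9, 16.4 and 19.1 CPM. Basal replicates 1 to 5 were at 24.01, 26.5, 33.4, 15.8 and 28.1 CPM. The groups overlapped, and in basal replicate 4 the level was below every luminal library. The log2 fold change of -0.34 (SE 0.19, adjusted p = 0.141) had a 95% interval from -0.72 to 0.04, and without basal replicate 4 it was -0.48 (adjusted p = 0.0207). The gene Cdk17 of the opposite strand overlaps Elk3 by 3680 bases in extent and by 316 bases of exon, and had 86.4 CPM in luminal and 140 CPM in basal cells. Elk3 is also known from endothelial cells. Their summed markers were 2.69 to 7.10 CPM in luminal and 7.56 to 15.2 CPM in basal libraries. Of the 3 endothelial markers tested only Cdh5 was called, at 0.217 CPM in luminal and 4.58 CPM in basal cells. Pecam1 was not called (2.71 against 3.74 CPM). Tek went the other way (1.74 against 1.09 CPM) and was not called either. The part of endothelial cells in the Elk3 values was not tested.

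Elk1 (Entrez 13712, chrX:20933395-20950608, minus strand) encodes the best known target of ERK in this family. It had the lowest level per kb of merged exon of the 6 tested genes, although in basal cells its range overlapped that of Mrtfb. Luminal replicates 1 to 5 were at 9.26, 8.85, 7.91, 8.78 and 10.5 CPM. Basal replicates 1 to 5 were at 8.54, 13.7, 13.9, 17.4 and 10.97 CPM. The luminal libraries agreed closely and the basal libraries were spread, with basal replicate 1 inside the luminal range. Its fitted difference was -0.51 (log2, SE 0.21, adjusted p = 0.0428). The call did not hold with the replicate number as a block (-0.48, adjusted p = 0.0848), with limma voom (adjusted p = 0.0627) or with library totals as the only scaling (-0.33, adjusted p = 0.195). It was also lost without luminal replicate 1, 2, 3 or 4, or without basal replicate 2, 3 or 4, so that most single libraries decide it. Elk1 shares 76 bases of exon with Uxt on the same strand, which was at 3.87 CPM in luminal and 4.17 CPM in basal cells, and the share of reads counted for both genes was not tested.

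Per kb of exon the ternary complex factors kept the order Elk4, Elk3, Elk1 in both cell types. In luminal cells Elk4 made up 63.7% ± 2.56, Elk3 26.2% ± 1.44 and Elk1 10.1% ± 1.962 of their summed level (SD, n = 5). In basal cells the shares were 75.2% ± 2.93, 17.2% ± 2.76 and 7.67% ± 3.002. The summed level was 17.0 ± 2.20 CPM per kb in luminal and 32.3 ± 3.86 CPM per kb in basal cells. Elk3 relative to Elk4 was 1.81-fold higher in luminal cells (0.86 on the log2 scale, exact permutation p = 0.00794, adjusted p = 0.0159), with no overlap of the libraries and the same direction in 5 of 5 pairs. Elk1 relative to Elk4 differed by 0.69 (exact permutation p = 0.0635, adjusted p = 0.0762) and Elk1 relative to Elk3 by -0.17 (exact permutation p = 0.73, adjusted p = 0.73), neither of them past the threshold. The call of Elk3 to Elk4 was also lost with sign flips over pairs (exact, adjusted p = 0.125) and with the difference of medians (permutation, adjusted p = 0.0952). The limit on Elk4 counts given above applies to the shares and ratios with Elk4.

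Across all 7 genes the order of levels per kb was headed by Srf in both cell types, at 38.2 ± 11.9 CPM per kb in luminal and 82.0 ± 14.1 CPM per kb in basal cells (SD, n = 5). In luminal cells Elk4 followed at 10.8, then Mrtfa at 6.00, Mrtfb at 5.45, Elk3 at 4.44, Elk1 at 1.68 and Myocd at 0.0217 CPM per kb. The ranges of Mrtfa and Mrtfb, and of Mrtfb and Elk3, overlapped. In basal cells the order was Elk4 at 24.3, Mrtfa at 20.03, Elk3 at 5.62, Mrtfb at 2.90, Elk1 at 2.40 and Myocd at 0.00788 CPM per kb. Here Elk4 and Mrtfa, Elk3 and Mrtfb, and Mrtfb and Elk1 overlapped. On these lengths Mrtfb stood beside Mrtfa in luminal cells and beside Elk1, near the low end, in basal cells. The order rests on merged exon lengths, which exceed the longest transcript unevenly (5381 against 3548 bases for Elk1, 8990 against 8295 for Mrtfb). The order with other lengths was not tested.

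**Figure D4:**
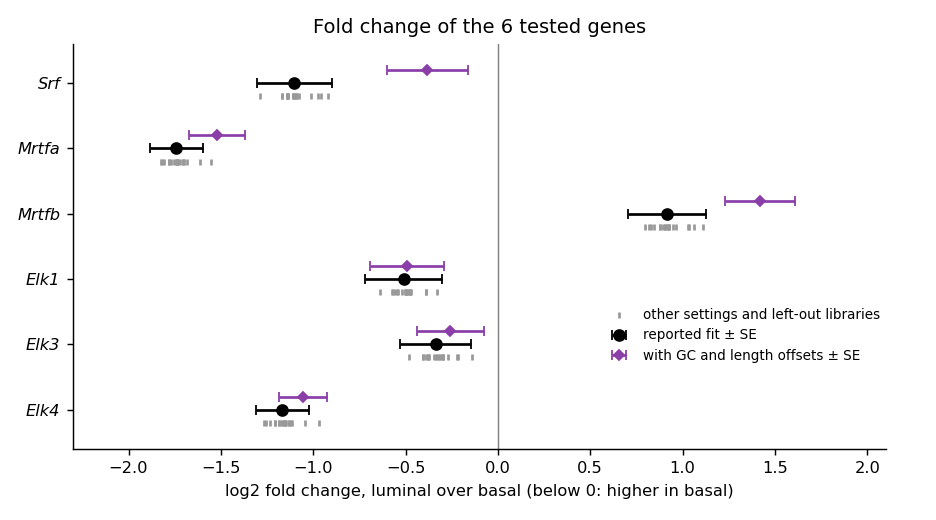
Log2 fold change of luminal over basal for the 6 tested genes. Black circles are the reported fit and purple diamonds the fit with GC and length offsets, both with SE, and grey ticks are the other settings and left-out libraries. The offsets move Srf from -1.10 to -0.38 and Mrtfb from 0.92 to 1.42.

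The genes whose profiles over the 10 libraries were most like each regulator were ranked among 14128 genes by the root mean square difference of centred log2(CPM + 0.5) values. For Mrtfa they were Ankrd12 (0.117) and Ccdc50 (0.152), and for Srf Tmem41b (0.146), Chuk (0.154) and Ddx50 (0.162). For Mrtfb they were Sesn3 (0.146), Slc35a5 (0.149) and Selenon (0.178). The likeness of Elk4 to Mfsd4a (0.0693) was closer than any of these, and Kdm5b (0.113) and Rnf145 (0.115) came next. For Elk3 they were Rfx7 (0.134), Arid1a (0.14) and Pdpk1 (0.15), and for Elk1 Alg3 (0.102), Pfn1 (0.12) and Cdk4 (0.129). The profiles share libraries and depth, and the values are a description.

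The genes that act on these regulators were described as lists, written from general knowledge, beside a median log2 fold change of 0.05 over all genes tested. Of 17 genes that bind monomeric actin or carry the MRTFs in and out of the nucleus, 15 were tested, with 3 called higher in luminal cells, 7 called higher in basal cells and 5 not called. This is 66.7% called, close to the 64.8% of all genes tested, and the median was -0.39. Mical2, whose product oxidises nuclear actin and is known to favour MRTF, was at 25.3 ± 3.996 CPM in luminal and 171 ± 30.4 CPM in basal cells (SD, n = 5; -2.75, SE 0.17, adjusted p = 5.32e-09). Emd, for the nuclear envelope protein emerin, was higher in basal cells (78.0 against 260 CPM, -1.74). Phactr4, an actin-binding regulator of protein phosphatase 1, was higher in luminal cells (276 against 48.0 CPM, 2.52). So was Tmsb4x, for the monomer-sequestering thymosin beta-4 (2207 ± 1221 against 436 ± 92.0 CPM, 2.34), although its luminal libraries spread from 1027 to 4133 CPM. Named for their roles, the importin gene Ipo9 (-1.09) and the exportin gene Xpo1 (-0.53) were both higher in basal cells, and Scai, which encodes a repressor of MRTF, had a value of -0.23 (adjusted p = 0.374).

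Of 17 genes of Ras and ERK signalling upstream of the ELK factors, 4 were called higher in luminal cells, 6 were called higher in basal cells and 7 were not called. This is 58.8% called, against 64.8% of all genes tested, and the median was -0.20. The scaffold gene Ksr1 (15.9 against 100.2 CPM, -2.65) and the calcineurin gene Ppp3ca (131 against 439 CPM, -1.75), whose product dephosphorylates ELK1, were higher in basal cells. The kinase gene Araf (62.6 against 42.3 CPM, 0.57, edgeR adjusted p = 0.00948) was higher in luminal cells. So was the Mediator gene Med23, whose product binds ELK1 (33.8 against 24.1 CPM, 0.49), close to the threshold (edgeR adjusted p = 0.0468). The luminal and basal libraries overlapped for both Araf and Med23. Named for its role, the kinase gene Mapk3 had a value of 0.18 (adjusted p = 0.206). The number of this list higher in luminal cells ran from 1 to 5 over the alternatives and was 1 without basal replicate 1 or basal replicate 2 or with no filter, and 2 with the replicate block.

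Among 7 further partners of SRF only 3 were tested, and all of these were called, where 64.8% of all genes tested were. Csrp1, for a LIM protein that bridges SRF to other factors, was higher in basal cells (703 against 2266 CPM, -1.69), and Hopx, for a repressor of SRF, was higher in luminal cells (19.8 ± 10.8 against 4.87 ± 3.96 CPM, 2.02, adjusted p = 0.00162), with overlapping libraries. Csrp2 was low and its call was lost in several alternatives. The cardiac partner Nkx2-5 had no count in any library. Of the MEF2 relatives of SRF, which share its MADS domain, 3 of 4 tested were higher in basal cells, a direction called for 31.2% of all genes tested. Mef2c had at most 2 counts in a luminal library and 27.0 ± 11.6 CPM in basal cells (SD, n = 5), which is at least 142-fold higher in basal cells against a floor of 3 counts per library. Mef2a (54.8 against 161 CPM, -1.55) was also higher in basal cells.

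**Figure D5:**
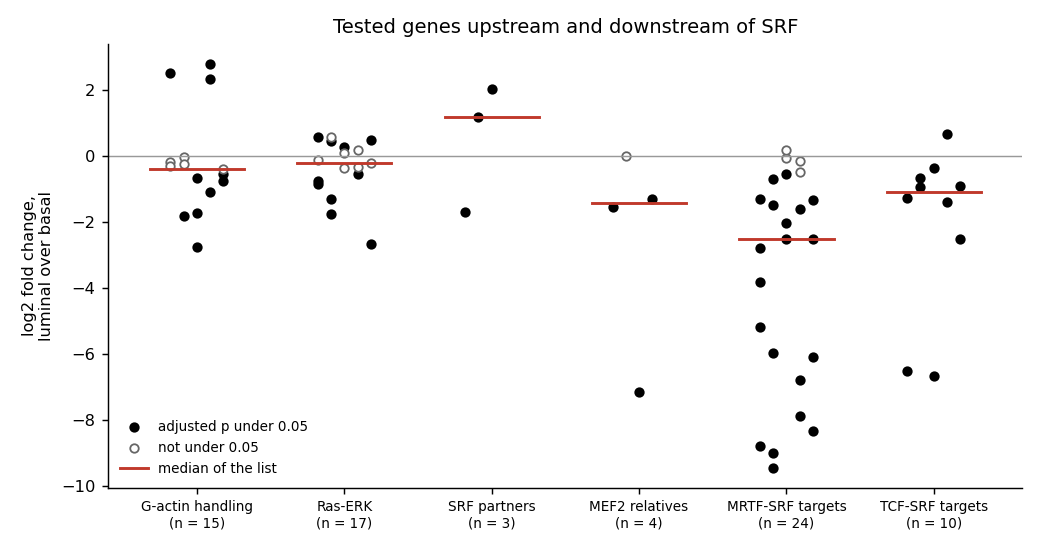
Log2 fold change of luminal over basal for the tested genes of 6 lists around SRF, with filled points for an adjusted p under 0.05 and red lines for list medians. Mef2c is drawn at its bound of -7.15. The MRTF-SRF targets lie lowest, with a median of -2.52, and the Ras-ERK genes have a median of -0.20.

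The known targets of SRF are given beside the regulators and were chosen with earlier results of these data in view, so that their direction is not independent evidence. Of 24 cytoskeletal targets of MRTF and SRF, 20 were higher in basal cells, none was called higher in luminal cells and 4 were not called (Actg1, Tagln2, Zyx and Fhl1). Over all genes tested 31.2% were called higher in basal cells. The median was -2.52. The largest values belonged to Myh11, the smooth-muscle myosin heavy chain gene (2.09 ± 1.09 against 1461 ± 407 CPM, -9.45), and Cnn1, the calponin gene (1.10 ± 0.64 against 590 ± 132 CPM, -9.02). Both are also among the basal markers, as are Acta2 and Mylk of the same list. The general cytoskeletal genes differed less, with Actb at -0.69 (1076 against 1738 CPM) and Actg1 at -0.05 (1773 against 1836 CPM, adjusted p = 0.855). With library totals as the only scaling 20 targets were higher in basal cells and 1 in luminal cells. Of the 5 perivascular markers tested 4 (Rgs5, Pdgfrb, Kcnj8 and Cspg4) were also higher in basal cells. Notch3 went the other way (165 CPM in luminal against 4.58 CPM in basal cells). The sum of all 6 perivascular markers was higher in luminal libraries (94.9 to 269 CPM) than in basal libraries (35.4 to 48.8 CPM). The part of perivascular cells in the target values was not tested.

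Of 10 immediate-early targets of the ternary complex factors and SRF, 9 were higher in basal cells and 1 in luminal cells, with a median of -1.11. The shares over all genes tested were 31.2% and 33.6%. Egr2 (1.53 ± 0.32 against 154 ± 27.4 CPM, -6.66) and Arc (4.27 ± 2.03 against 394 ± 222 CPM, -6.52) had the largest values. Named for their roles, Fos (214 against 401 CPM, -0.91) and Egr1 (169 against 325 CPM, -0.94) were higher in basal cells. The Fos libraries overlapped, with up to 324 CPM in luminal and from 298 CPM in basal cells. The part of the tissue dissociation in the levels of these immediate-early genes was not tested. Mcl1, a survival gene, was the exception (346 ± 24.9 against 218 ± 25.5 CPM, 0.67). A CArG box was found within 250 bases before the start in 6 of 20 cytoskeletal targets with a promoter entry (30.0%), Actg1, Cnn2, Myl9, Vcl, Fhl1 and Fhl2, against 1.62% of all genes. The genes were listed as known targets of SRF, which recognises this box, so the higher share is not independent evidence. Among the immediate-early targets it was found in 1 of 6 (Egr2). Of the 6 cytoskeletal genes with a box, Cnn2 (-2.02), Myl9 (-6.80), Vcl (-1.50) and Fhl2 (-1.35) were higher in basal cells, and Actg1 and Fhl1 were not called.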

How the data were processed

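Read counts were deposited by the authors as whole numbers per gene, not normalized, in 1 column per library. The study describes poly(A) RNA, single-end reads trimmed with cutadapt and aligned to mm10 with bowtie2, which does not split reads over junctions. It describes fewer replicates than the 5 here, so these steps were assumed to hold. The processing notes list cutadapt 4.2, Bowtie2 2.3.5.1, mm10 and hg19. The counting tool, its annotation and strand setting are not given in the sources used here. Of 24594 genes, 24570 matched a RefSeq symbol. All columns were used, grouped by the cell type label. The 7 genes and all lists were chosen with earlier results of these data known. Counts were filtered with filterByExpr (minimum count 10, minimum total 15, 9985 genes dropped), scaled by TMM and compared with edgeR 4.0.16 in R 4.3.3, in a model of cell type alone, and p-values were adjusted over the 14609 genes tested. SE was taken from the fold change and its F statistic. Exon lengths (exons merged over all transcripts of a gene), GC content and exon overlaps are from GENCODE M21, with GC and length known for 93.8% of the genes tested.

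Named genes are the 7 regulators, up to 2 with the largest positive and 2 with the largest negative called values of each list at 10 CPM or more, genes named for a role, and the 3 nearest profiles. A list of signalling genes and some single genes are not reported here. Pairing rests on the leading number in the library description, which same-numbered luminal and basal libraries share and which was taken for the animal. Deviations of same-numbered libraries correlated at -0.12, 0.11, -0.06, 0.22 and 0.06. No 2 replicates agreed within sampling noise (lowest chi-square per degree of freedom 15.0). The labels give no batch, and limits from counts cover counting error only. On simulated data with the real means, 54.0% of 100 genes changed 2-fold and 85.0% of 100 changed 4-fold were recovered among 14609 genes, with 11 false calls. Alternatives were DESeq2 1.42.0, limma 3.58.1 voom, other scalings and filters, thinning, the replicate block, GC and length offsets and leaving out each library. The offset difference of ratios was chosen after seeing the data.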

Additional observations from a re-analysis of the deposited data

Results flagged for a closer look

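Groups of 5 libraries were searched for a single library far from the rest (gap over range above Dixon's 95% limit), in 48 groups of values, of which chance flags about 1 in 20, or 2.4. There were 3. Luminal replicate 4 had Myocd at 0.458 CPM, a matter of 6 counts, where its 4 companions had 0 to 0.123 CPM. Basal replicate 1 had a TMM factor of 0.892, below a range of 0.943 to 0.960 in its companions. The 20 most counted genes took 9.19% of the counts in basal replicate 5, against 10.1% to 10.3% in the others. No level of the 6 tested regulators, and none of the 6 ratios, stood apart in this way.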

How the results depend on the processing

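Mrtfa, Mrtfb and Elk4 kept their direction and their call in all alternatives run. Srf lost its call with GC and length offsets (-0.38) and with these offsets and the replicate block (-0.44). Elk1 lost its call with upper-quartile factors (-0.39), library totals (-0.33), voom (-0.47), the replicate block (-0.48) and the offsets with the block (-0.46), and ran from -0.64 to -0.39 over left-out libraries. The median of all genes moved by 0.12 under upper-quartile factors and by 0.19 under library totals. Elk3 ran from -0.48 to -0.22 over left-out libraries and was called only without basal replicate 4. The number of regulators called fell from 5 to 3 with the offsets and the block. The replicate block as a pairing changed no call of a regulator other than Elk1. The cause of these changes was not tested.

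For the ratios, the exact test by sign flips over the 5 pairs cannot go below p = 0.0625, so under this pairing block Mrtfa to Mrtfb (-2.66), Mrtfa to Srf (-0.59), Mrtfb to Srf (2.07) and Elk3 to Elk4 (0.86) were past no threshold, with the values unchanged. With differences of medians they were -2.99, -0.78, 2.12 and 0.84 with adjusted p of 0.0952 to 0.179, and Elk1 to Elk3 turned to 0.19. Mrtfa to Srf was lost after thinning (-0.60), became -1.14 with offsets, and ran from -0.75 to -0.51 over left-out libraries. Elk1 to Elk3 ran from -0.29 to 0.12 over left-out libraries, positive without basal replicate 4, and Elk1 to Elk4 from 0.52 to 0.90, past the threshold only without basal replicate 4. Depth limits Myocd, with 0 to 6 counts a library, which could be tested only with no filter (edgeR, adjusted p = 0.398).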
